A study of Mus musculus with 9 samples.

Results

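The genes of the LIF receptor and STAT3 pathway were followed in 9 RNA-seq libraries of mouse embryoid bodies (EBs), in which embryonic stem (ES) cells aggregate and start to differentiate. The set was a fixed list of 8 genes by role: the ligand *Lif*, the receptor chains *Lifr* and *Il6st*, the kinases *Jak1* and *Jak2*, the transcription factor *Stat3*, and its targets *Socs3* and *Pim1*. All 8 were found by Ensembl ID among the 55471 genes of the count table, and all 8 passed the filter on low counts in every comparison. The libraries fell into 3 groups of 3. WT EBs came from the parental E14 ES cell line. KO EBs were *Tnfaip2*-/- and came from 1 ES cell clone of that line, made with CRISPR-Cas9 and carrying a premature stop codon. KO_PAPC EBs were *Tnfaip2*-/- EBs given 8 µM each of the fatty acid palmitic acid (PA) and its carnitine ester palmitoyl-L-carnitine (PC). EBs formed for 3 days in hanging drops and then differentiated for 3 days on gelatin. Each library pooled EBs, so that a lower level can reflect fewer cells of a type or less RNA per cell, which cannot be told apart.

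LIF, a cytokine of the interleukin-6 (IL-6) family, joins its own receptor LIFR to the shared signalling chain gp130, the product of *Il6st*. The kinases bound to these chains, chiefly JAK1 and also JAK2 and TYK2, then phosphorylate STAT3, which enters the nucleus and switches on target genes. In mouse ES cells this signal upholds self-renewal, and its loss lets the cells differentiate. SOCS3 is a feedback inhibitor that binds gp130 and the JAKs, and PIM1 is a kinase that promotes survival.

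The culture media bear on this pathway. ES cells were kept with LIF at 1000 U/ml, and the differentiation medium is listed without LIF in all groups. The methods describe hanging drops in ES cell medium for WT and KO EBs, and in the differentiation medium with PA/PC for treated EBs. A vehicle control is named for the untreated EBs, but the medium of its drops is not. Exposure to PA/PC and to LIF during the hanging drop cannot be told apart in KO_PAPC against KO. In KO_PAPC against WT the drop medium as described, the genotype and PA/PC all differ, and these cannot be told apart either.

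Libraries held between 27362913 and 28914312 counts. *Tnfaip2* itself lay at 6 to 16 counts in WT, 5 to 8 in KO and 14 to 25 in KO_PAPC, too low to check the knockout labels, and a frameshift need not lower the transcript. The labelled cell type was checked by markers. All 8 pluripotent cell markers were at 1 CPM (counts relative to the library total) or more in every group, and their sum was 2801 to 2902 CPM in WT, 4350 to 4397 in KO and 2615 to 2725 in KO_PAPC. In KO against WT 6 of the 8 rose and 1 fell, and in KO_PAPC against WT 4 rose and 4 fell. In KO_PAPC against KO 2 rose, *Pou5f1* among them, and 6 fell, 5 of them past a tested 2-fold change. *Pou5f1*, the defining factor of pluripotent cells, held 684 ± 14.3 CPM in WT EBs (SD, n = 3), 695.5 ± 14.2 in KO and 843 ± 23.3 in KO_PAPC EBs. The 10 endoderm markers summed to 862 to 928 CPM in WT, 479 to 485 in KO and 80.7 to 81.6 in KO_PAPC. *Col4a1* made up most of this sum in WT, at 500.0 ± 20.6 CPM, and in KO 8 of the 10 fell while *Afp* and *Ttr* rose. All 10 fell in KO_PAPC against both other groups. The 7 neuroectoderm markers summed to 357 to 366, 239 to 244 and 508 to 516 CPM in the same order, with 5 of 6 tested down and *Sox3* up in KO against WT. *Otx2* made up most of this sum, at 217.7, 189.7 and 281.7 CPM. The 8 trophoblast markers summed to 95.3 to 96.6, 327 to 334 and 61.6 to 66.2 CPM. Most of the difference lay in *Tfap2c*, at 53.95, 294.1 and 27.4 CPM, whereas *Eomes* fell in KO, and 3 were up and 1 down of 7 tested in KO against WT. The 8 fibroblast markers summed to 43.3 to 45.2, 30.1 to 30.2 and 13.5 to 14.8 CPM. The falling sum was that of *Pdgfra*, at 35.4, 13.3 and 2.34 CPM, while the other 4 tested markers were up in KO_PAPC against WT. The 8 macrophage and blood cell markers summed to 14.6 to 17.1, 19.4 to 19.95 and 8.15 to 8.29 CPM. Most of this sum was *Cd68*, at 14.25, 17.29 and 7.36 CPM. Among the same markers, *Ptprc*, *Adgre1*, *Lyz2* and *Hba-a1* had at most 3 counts in every library. The part that these shifts in cell make-up had in the values below was not tested.

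Promoter sequences are given for the 3 genes with a fold change past 2 in at least 1 comparison under every alternative tried, so that the letters upstream of the genes that moved most can be read. They are the 250 bases before the RefSeq start in GRCm38.p6, printed 5′ to 3′ on the gene's strand. Capitals mark a match to TTCNNNGAA, the palindrome bound by STAT dimers, which reads the same on both strands.
*Socs3* (chr11:117969367-117969616, minus strand): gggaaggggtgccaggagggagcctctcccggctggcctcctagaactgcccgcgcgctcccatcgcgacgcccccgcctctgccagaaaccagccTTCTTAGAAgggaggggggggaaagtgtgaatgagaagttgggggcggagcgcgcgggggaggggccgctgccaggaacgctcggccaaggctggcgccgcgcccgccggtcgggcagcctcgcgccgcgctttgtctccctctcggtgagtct
*Lif* (chr11:4257318-4257567, plus strand): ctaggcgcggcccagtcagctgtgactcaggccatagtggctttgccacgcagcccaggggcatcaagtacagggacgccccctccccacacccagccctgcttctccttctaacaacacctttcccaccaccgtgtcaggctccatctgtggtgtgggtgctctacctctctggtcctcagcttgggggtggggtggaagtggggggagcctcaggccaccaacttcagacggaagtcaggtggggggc
*Pim1* (chr17:29490535-29490784, plus strand): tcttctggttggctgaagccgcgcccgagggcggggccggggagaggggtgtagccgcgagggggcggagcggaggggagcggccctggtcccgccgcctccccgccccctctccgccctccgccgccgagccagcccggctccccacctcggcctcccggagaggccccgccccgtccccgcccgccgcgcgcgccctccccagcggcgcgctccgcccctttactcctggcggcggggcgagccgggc

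All 8 genes matched the RefSeq table, with 10 promoter windows in all. The STAT palindrome was present in 1 of the 10 windows, that of *Socs3*, as TTCTTAGAA from 154 to 146 bases before the start. Of all 32851 mouse windows of this length, 7.02% held it. The stricter form TTCCNGGAA, whose matches are a subset of the former, was in none of the 10 windows and in 0.913% of all windows. The match is a description of the letters and not a binding site, and its absence from the *Lif* and *Pim1* windows says nothing about binding there. The GC content of the printed windows was 71.6% for *Socs3*, 63.6% for *Lif* and 82.4% for *Pim1*, against a median of 52.4% over all windows. In GENCODE M21 the *Socs3* window lay inside a longer transcript model of the gene, and the last bases of the *Lif* and *Pim1* windows lay in the first exon as drawn there.

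To ask how the pathway differs in EBs of the *Tnfaip2*-/- clone, KO was compared with WT. Loss of *Tnfaip2* and other differences between this clone and the parental line cannot be told apart in this comparison. The test measures spread between libraries of the same clone, not between clones. *Pim1* was 2.49-fold higher in KO, and *Jak2* and *Il6st* were higher by 1.61-fold and 1.23-fold, whereas *Lifr* was 1.56-fold lower and *Socs3* 1.46-fold lower. *Jak1* was higher by only 1.06-fold. *Lif* and *Stat3* did not pass the test. In all, 6 of the 8 genes passed the quasi-likelihood test of edgeR (adjusted p under 0.05). Of all 17355 tested genes 73.8% passed, so that the share among the 8 (75.0%) was close to the background. There were 4 genes that rose, against a background of 36.8%, and 2 that fell, against 37.1%. Past a tested 2-fold change there was 1 gene, *Pim1*, which rose. The background there was 9.14%, made up of 5.36% that rose and 3.79% that fell.

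To ask what PA/PC changes in EBs without *Tnfaip2*, KO_PAPC was compared with KO. *Socs3* was 4.47-fold higher in KO_PAPC, and *Lifr* was 1.23-fold higher. *Lif* was 2.71-fold lower and *Jak2* 2.17-fold lower, and *Pim1*, *Il6st* and *Jak1* were lower by 1.36-fold, 1.35-fold and 1.24-fold. *Stat3* did not pass the test. Thus 7 of the 8 genes passed, beside 81.8% of all 17167 tested genes. Of the 7, 2 rose (background 39.6%) and 5 fell (background 42.2%). Past a tested 2-fold change were 3 of the 8, beside 20.7% of all genes, of which *Socs3* rose (background 6.26%) and *Lif* and *Jak2* fell (background 14.4%). The 2-fold call of *Jak2* (adjusted p = 0.0462) was lost in 8 of 13 alternatives. With no library left out, these were DESeq2 (0.76), a test of every gene with at least 1 count (0.153), a joint fit of the 3 groups (0.087) and a replicate block (0.0544). The others were the fits without KO replicate 2 (0.0782), KO replicate 3 (0.0916), KO_PAPC replicate 1 (0.289) and KO_PAPC replicate 2 (0.108).

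To ask whether the genes stood at their WT levels in the treated EBs, KO_PAPC was also compared with WT. *Socs3* (3.05-fold) and *Pim1* (1.83-fold) were higher in KO_PAPC, and *Lif* (2.89-fold), *Jak2* (1.35-fold), *Lifr* (1.28-fold), *Jak1* (1.17-fold) and *Il6st* (1.10-fold) were lower. This made 7 of the 8, beside 70.6% of 16655 tested genes, with 2 up (background 34.2%) and 5 down (background 36.4%). Past a tested 2-fold change were 2 of the 8, beside 8.02% of all genes, with *Socs3* up (background 0.961%) and *Lif* down (background 7.05%). KO libraries enter both of the former comparisons, and KO_PAPC libraries both of the latter, so the values of a gene in them are not independent.

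**Figure D1:**
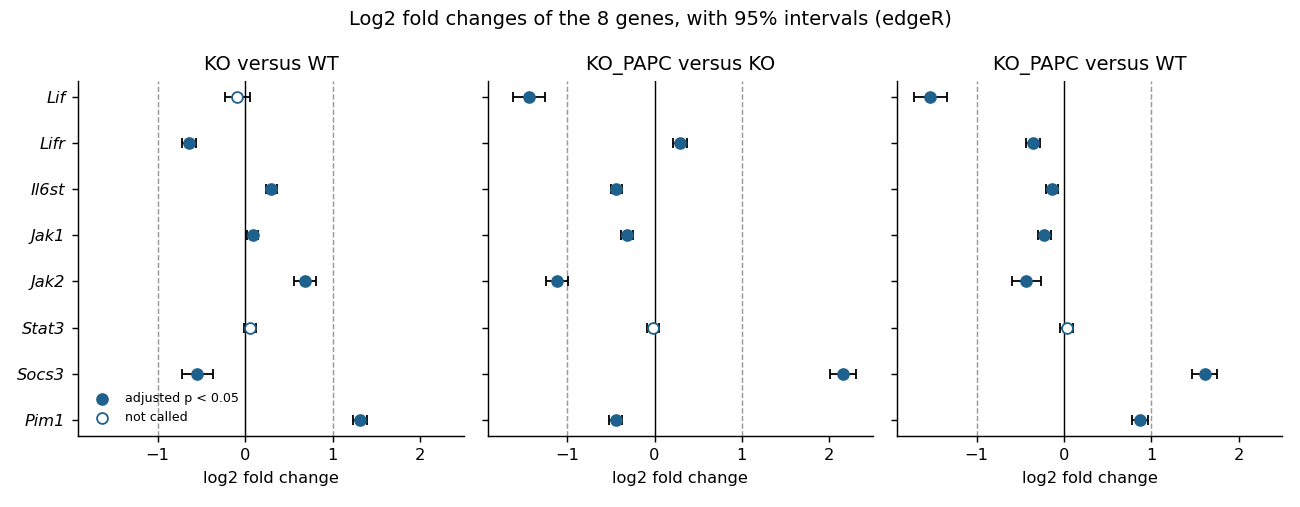
Log2 fold changes of the 8 genes (horizontal axis) in the 3 comparisons, with 95% intervals from edgeR, where filled points are genes called at an adjusted p under 0.05, open points are not called, and dashed lines mark a 2-fold change. *Socs3* lies farthest to the right in both comparisons of KO_PAPC, at 2.16 and 1.61, and *Lif* farthest to the left, at -1.44 and -1.53, while *Stat3* is open in all panels.

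The scaling of the libraries moved the values in both comparisons of KO_PAPC. The TMM factors were between 0.916 and 0.923 in KO_PAPC libraries and between 1.04 and 1.05 in the others. With scaling by library totals in place of TMM, the log2 fold change of the median gene went from -0.017 to -0.183 in KO_PAPC against KO and from -0.017 to -0.181 in KO_PAPC against WT, and the calls went from 6801 up and 7246 down to 5323 up and 8677 down in the former, and from 5693 up and 6067 down to 3631 up and 8334 down in the latter. Fold changes are given relative to the TMM scale, whereas CPM values and counts are relative to library totals.

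The ligand *Lif* (ENSMUSG00000034394, chromosome 11, 4257557 to 4272514) was one of the lowest of the 8 genes. There were 384, 340 and 377 counts in the WT libraries, 354, 318 and 384 in those of KO, and 122, 108 and 107 in those of KO_PAPC. WT and KO overlapped, and the KO_PAPC libraries all lay well below both. The means were 13.1 ± 0.798 CPM in WT EBs (SD, n = 3), 12.3 ± 0.967 in KO and 4.06 ± 0.293 in KO_PAPC EBs. In KO against WT the log2 fold change was -0.09 ± 0.0697 (SE), with a 95% interval from -0.231 to 0.0529 (edgeR adjusted p = 0.25). *Lif* fell in KO_PAPC, with a log2 change of -1.44 ± 0.0921 against KO (edgeR adjusted p = 1.04e-16) and of -1.53 ± 0.0894 against WT (edgeR adjusted p = 9.93e-14).

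The receptor chains moved in opposite directions in KO against WT and in KO_PAPC against KO, and both were lower in KO_PAPC than in WT. *Lifr* (ENSMUSG00000054263, chromosome 15, 7090614 to 7197489), which binds LIF, had 2141, 2021 and 2086 counts in WT, 1430, 1323 and 1332 in KO, and 1454, 1389 and 1489 in KO_PAPC. All KO and KO_PAPC libraries lay below all WT libraries. It was 74.6 ± 1.67 CPM in WT EBs, 47.8 ± 2.06 in KO and 52.2 ± 1.35 in KO_PAPC EBs. *Lifr* fell in KO with a log2 change of -0.64 ± 0.037 (edgeR adjusted p = 5.71e-17). In KO_PAPC it was higher than in KO, with a log2 change of 0.29 ± 0.0409 (edgeR adjusted p = 4.57e-08). With scaling by library totals this change was 0.13 (adjusted p = 0.00491). *Lifr* was lower in KO_PAPC than in WT, with a log2 change of -0.35 ± 0.038 (edgeR adjusted p = 1.08e-08).

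*Il6st* (ENSMUSG00000021756, chromosome 13, 112464070 to 112510086), the gp130 chain shared by the whole cytokine family, had 2543, 2516 and 2490 counts in WT, 3165, 3110 and 3210 in KO, and 2029, 1960 and 2078 in KO_PAPC. The groups did not overlap, with KO highest and KO_PAPC lowest. The means were 90.1 ± 0.365 CPM in WT EBs, 110.9 ± 0.118 in KO and 73.1 ± 1.47 in KO_PAPC EBs. *Il6st* rose in KO by 0.30 ± 0.0291 on the log2 scale (edgeR adjusted p = 3.51e-11) and was lower in KO_PAPC than in KO, with a log2 change of -0.44 ± 0.0322 (edgeR adjusted p = 6.65e-15). Against WT it was -0.14 ± 0.0343 in KO_PAPC (edgeR adjusted p = 0.000984) and -0.30 with scaling by library totals.

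Because a library's scaling cancels in a ratio of its own genes, *Lifr* was also divided by *Il6st*. There were 0.842, 0.803 and 0.838 *Lifr* counts per *Il6st* count in WT, 0.452, 0.425 and 0.415 in KO, and 0.717, 0.709 and 0.717 in KO_PAPC. The ratio was lower in every KO library than in any other, and the KO_PAPC libraries lay between KO and WT without overlap. The means were 0.828 ± 0.0212 in WT EBs, 0.431 ± 0.019 in KO and 0.714 ± 0.00457 in KO_PAPC EBs. The supply of ligand message relative to its receptor message took another order, with 0.176 ± 0.00685 *Lif* counts per *Lifr* count in WT EBs, 0.259 ± 0.0258 in KO and 0.0778 ± 0.00602 in KO_PAPC EBs. An exact permutation test of 3 libraries against 3 cannot go below p = 0.1, and the ratios are given as a description.

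**Figure D2:**
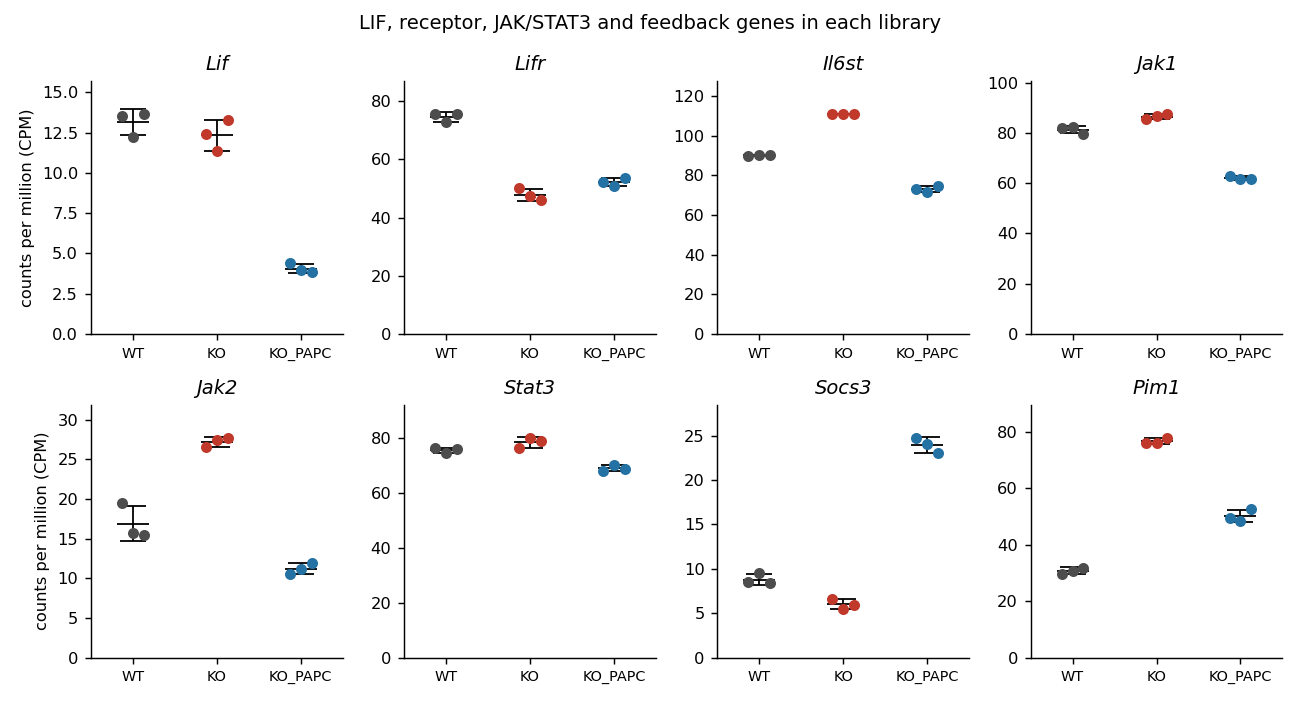
CPM (vertical axes, from 0) of each of the 8 genes in the 9 libraries, by group, where points are libraries, the long line is the mean and bars are the SD (n = 3). *Lif* is lowest and *Socs3* highest in all 3 KO_PAPC libraries, *Pim1* is lowest in all 3 WT libraries, and *Stat3* spans only 68.1 to 80.2 CPM over all 9.

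The kinases differed in size of change. *Jak1* (ENSMUSG00000028530, chromosome 4, 101152367 to 101265282), the main kinase of gp130, had 2323, 2291 and 2197 counts in WT, 2438, 2424 and 2529 in KO, and 1748, 1681 and 1719 in KO_PAPC. Its means were 81.3 ± 1.51, 86.4 ± 1.06 and 62.0 ± 0.795 CPM. The KO libraries lay only just above WT, and the KO_PAPC libraries were set apart below both. The small rise in KO was 0.09 ± 0.0313 on the log2 scale (edgeR adjusted p = 0.011), and it was not called without WT replicate 3 (0.07, adjusted p = 0.102). In KO_PAPC the log2 fold change was -0.31 ± 0.0341 against KO (edgeR adjusted p = 1.81e-10) and -0.23 ± 0.0358 against WT (edgeR adjusted p = 4.44e-06).

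*Jak2* (ENSMUSG00000024789, chromosome 19, 29251828 to 29313080), a kinase that also serves many other cytokine and hormone receptors, had 552, 437 and 428 counts in WT, 758, 768 and 802 in KO, and 292, 306 and 332 in KO_PAPC. WT replicate 1 stood above the other WT libraries but below every KO library. The means were 16.9 ± 2.24 CPM in WT EBs, 27.2 ± 0.621 in KO and 11.2 ± 0.702 in KO_PAPC EBs. *Jak2* rose in KO with a log2 change of 0.69 ± 0.0622 (edgeR adjusted p = 6.97e-12). In KO_PAPC it fell, with -1.11 ± 0.0603 against KO (edgeR adjusted p = 6.89e-19) and -0.43 ± 0.0824 against WT (edgeR adjusted p = 5.67e-05). There were 0.208 ± 0.026 *Jak2* counts per *Jak1* count in WT EBs, 0.315 ± 0.00351 in KO and 0.181 ± 0.0131 in KO_PAPC EBs. The lowest WT ratio (0.191) lay within the KO_PAPC range, which reached 0.193, while all KO ratios were higher.

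*Stat3* (ENSMUSG00000004040, chromosome 11, 100885098 to 100939540), the transcription factor that carries the signal, varied least. Its counts were 2163, 2078 and 2097 in WT, 2180, 2247 and 2283 in KO, and 1893, 1922 and 1915 in KO_PAPC. KO_PAPC libraries lay lowest per library total, at 69.0 ± 1.08 CPM against 75.7 ± 0.848 CPM in WT and 78.5 ± 1.98 CPM in KO. On the TMM scale no comparison was called. The log2 fold changes had 95% intervals from -0.0121 to 0.12 in KO against WT (edgeR adjusted p = 0.133), from -0.0894 to 0.0513 in KO_PAPC against KO (edgeR adjusted p = 0.617) and from -0.0403 to 0.105 in KO_PAPC against WT (edgeR adjusted p = 0.421). With scaling by library totals, *Stat3* was lower in KO_PAPC than in KO, with a log2 change of -0.185 (adjusted p = 9.96e-06), and lower than in WT, with -0.132 (adjusted p = 0.00172), which is about the shift that this scaling gives the median gene. The counts measure *Stat3* message and not the phosphorylated protein.

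*Socs3* (ENSMUSG00000053113, chromosome 11, 117966079 to 117970047), the feedback inhibitor whose promoter holds the palindrome printed above, had 240, 265 and 231 counts in WT, 188, 153 and 173 in KO, and 688, 659 and 641 in KO_PAPC. Every KO library was below every WT library, and every KO_PAPC library was above both by a wide margin. The means were 8.79 ± 0.642 CPM in WT EBs, 6.01 ± 0.561 in KO and 23.9 ± 0.888 in KO_PAPC EBs. *Socs3* fell in KO with a log2 change of -0.55 ± 0.0886 (edgeR adjusted p = 1.51e-06). It rose in KO_PAPC, by 2.16 ± 0.0715 against KO (edgeR adjusted p = 1.81e-25) and by 1.61 ± 0.0662 against WT (edgeR adjusted p = 9.28e-17).

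*Pim1* (ENSMUSG00000024014, chromosome 17, 29490753 to 29496112), the survival kinase, had 838, 859 and 882 counts in WT, 2172, 2133 and 2255 in KO, and 1375, 1327 and 1466 in KO_PAPC. The groups did not overlap, and KO_PAPC lay between WT and KO. The means were 30.8 ± 1.19, 76.7 ± 1.10 and 50.2 ± 2.15 CPM. *Pim1* rose in KO by 1.32 ± 0.0387 on the log2 scale (edgeR adjusted p = 3.02e-25). In KO_PAPC it was lower than in KO, with -0.45 ± 0.0377 (edgeR adjusted p = 2.76e-13), and still above WT, with 0.87 ± 0.0459 (edgeR adjusted p = 1.33e-14). The libraries were unstranded, and 14.5% of the exon bases of *Pim1* overlap the antisense gene *Gm26885*. That gene held 1 to 12 counts in any library.

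*Socs3* and *Pim1* are both textbook targets of STAT3, and they took different orders over the groups. Per *Stat3* count there were 0.116 ± 0.00981 *Socs3* counts in WT EBs, 0.0767 ± 0.00911 in KO and 0.347 ± 0.0148 in KO_PAPC EBs. For *Pim1* the ratio to *Stat3* was 0.407 ± 0.0174 in WT EBs, 0.978 ± 0.0251 in KO and 0.727 ± 0.0376 in KO_PAPC EBs. KO libraries were thus lowest for *Socs3* and highest for *Pim1*, with no overlap between groups in either ratio.

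**Figure D3:**
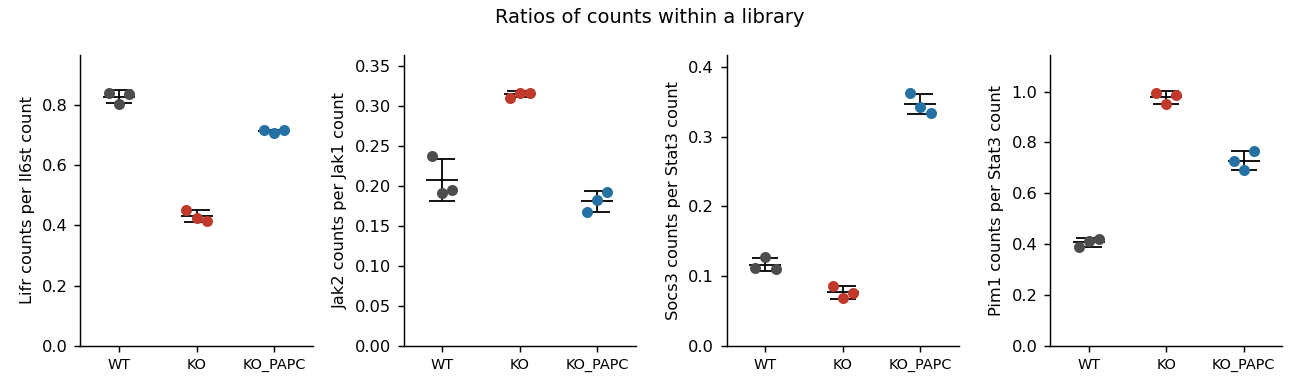
Ratios of counts within a library (vertical axes, from 0) for *Lifr* per *Il6st*, *Jak2* per *Jak1*, *Socs3* per *Stat3* and *Pim1* per *Stat3*, where points are the 9 libraries by group, long lines are means and bars are the SD (n = 3). *Socs3* per *Stat3* is highest in KO_PAPC at 0.347, *Pim1* per *Stat3* is highest in KO at 0.978, and *Lifr* per *Il6st* is lowest in KO at 0.431.

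To compare levels between genes, CPM were divided by the length of a gene's merged exons. In WT the order of the mean levels, in CPM per kilobase, was *Jak1* (11.3), *Pim1* (9.16), *Il6st* (8.12), *Stat3* (7.94), *Lifr* (6.92), *Jak2* (3.36), *Socs3* (3.04) and *Lif* (3.02). The libraries of *Jak2* and *Socs3*, and those of *Socs3* and *Lif*, overlapped, and other neighbours did not. In KO the order was *Pim1* (22.8), *Jak1* (12.0), *Il6st* (9.995), *Stat3* (8.24), *Jak2* (5.41), *Lifr* (4.43), *Lif* (2.84) and *Socs3* (2.08), with no overlap between neighbours. *Lifr* stood below *Jak2* in KO, and above it in WT. In KO_PAPC the order was *Pim1* (14.9), *Jak1* (8.58), *Socs3* (8.29), *Stat3* (7.25), *Il6st* (6.58), *Lifr* (4.84), *Jak2* (2.23) and *Lif* (0.933). The libraries of *Jak1* and *Socs3* overlapped there, and the feedback inhibitor stood above *Stat3* in that group alone. These levels rest on all annotated exons, and a shorter isoform would be given too low a level.

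The wider pathway was described by 6 lists, 63 genes in all. In KO against WT, 48 of 60 tested genes were called (80.0%), 27 up and 21 down. In KO_PAPC against KO it was 51 of 59 (86.4%), 22 up and 29 down, and in KO_PAPC against WT 39 of 58 (67.2%), 19 up and 20 down. These shares lay near the 73.8%, 81.8% and 70.6% of all tested genes. The same shares of all tested genes are the background for the counts of each list below. The list medians of the log2 fold change were 0.01, -0.17 and -0.03, beside -0.01, -0.02 and -0.02 for all tested genes.

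Of 7 other ligands of the IL-6 family, 5 were tested in KO against WT, with 1 up and 2 down. In KO_PAPC against KO, 1 was up and 1 down of 4, and against WT 1 was up of 4. *Clcf1*, which signals through the CNTF receptor, LIFR and gp130, was at 4.30 ± 0.335 CPM in WT EBs, 1.23 ± 0.119 in KO and 6.70 ± 0.347 in KO_PAPC EBs. It fell in KO by 1.80 ± 0.147 on the log2 scale (edgeR adjusted p = 5.1e-13) and rose in KO_PAPC by 2.61 ± 0.133 over KO (edgeR adjusted p = 1.07e-19). *Ctf1*, cardiotrophin 1, another ligand of LIFR, was at 4.30 ± 0.528 CPM in WT EBs, 3.26 ± 0.323 in KO and 3.41 ± 0.407 in KO_PAPC EBs, and the fall in KO passed the test (log2 fold change -0.40, edgeR adjusted p = 0.0042). *Il6* and *Il27* were too low to be tested, with at most 7 and 5 counts in a library.

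Among 6 other receptor chains of the family, all 5 that could be tested were called, with 1 up and 4 down in KO against WT, and 3 up and 2 down in both comparisons of KO_PAPC. Of all tested genes, 73.8% were called in KO against WT, 81.8% in KO_PAPC against KO and 70.6% in KO_PAPC against WT. *Cntfr*, the chain that adds CNTF and CLCF1 to LIFR and gp130, was higher per kilobase than *Lifr* in every group. It had 112.8 ± 8.02 CPM in WT EBs, 18.4 ± 0.612 in KO and 117 ± 7.36 in KO_PAPC EBs, so that KO libraries lay far below and the other groups overlapped. On the TMM scale *Cntfr* was nevertheless called in KO_PAPC against WT (log2 fold change 0.22 ± 0.0445, edgeR adjusted p = 0.000125), a call lost with library totals (0.05, adjusted p = 0.305). Its log2 fold change was -2.61 ± 0.0478 in KO against WT (edgeR adjusted p = 3.74e-31) and 2.83 ± 0.0463 in KO_PAPC against KO (edgeR adjusted p = 4.34e-35). *Il6ra*, the chain for IL-6, took the opposite order, at 3.27 ± 0.625 CPM in WT EBs, 7.73 ± 0.376 in KO and 0.626 ± 0.238 in KO_PAPC EBs. It rose in KO by 1.24 ± 0.109 (edgeR adjusted p = 3.7e-12) and was lower in KO_PAPC than in KO, with -3.45 ± 0.162 (edgeR adjusted p = 9e-21). *Osmr*, the oncostatin M receptor, was not tested, with 1 to 8 counts.

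All 8 other JAK and STAT genes were tested. In KO against WT 5 were up and 2 down, in KO_PAPC against KO 1 was up and 6 down, and in KO_PAPC against WT none was up and 5 were down. *Stat5a*, which serves prolactin and other cytokine receptors, was at 8.20 ± 0.226 CPM in WT EBs, 11.7 ± 0.789 in KO and 4.09 ± 0.668 in KO_PAPC EBs, with a log2 change of 0.51 ± 0.0751 in KO (edgeR adjusted p = 2.84e-07) and of -1.35 ± 0.0976 in KO_PAPC against KO (edgeR adjusted p = 3.81e-15). *Jak3*, the kinase of the common gamma chain, followed the same order at 22.5 ± 2.18, 34.3 ± 1.87 and 16.05 ± 1.92 CPM, as did *Stat4* at 4.48 ± 0.540, 8.13 ± 0.732 and 3.27 ± 0.540 CPM. *Tyk2*, named for its role at gp130 after its values were seen, was at 51.9 ± 1.56, 51.5 ± 2.21 and 26.8 ± 1.07 CPM. It was not called in KO against WT (log2 fold change -0.01 ± 0.0394, edgeR adjusted p = 0.821) and fell in KO_PAPC against KO by 0.78 ± 0.0462 (edgeR adjusted p = 1.05e-17).

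The 15 other negative regulators were all tested, with 7 up and 4 down in KO against WT, 4 up and 7 down in KO_PAPC against KO, and 3 up and 2 down in KO_PAPC against WT. *Socs2*, an inhibitor of growth hormone signalling, was the highest SOCS gene per kilobase in every group, at 99.9 ± 3.67 CPM in WT EBs, 177.6 ± 1.13 in KO and 118.2 ± 1.03 in KO_PAPC EBs. *Socs5* had 21.4 ± 1.58 CPM in WT EBs, 12.7 ± 0.935 in KO and 20.5 ± 1.10 in KO_PAPC EBs. Its fall in KO was -0.76 ± 0.0648 on the log2 scale (edgeR adjusted p = 1.57e-12), and KO_PAPC was not called against WT (adjusted p = 0.148). *Socs7* had 59.1 ± 1.77, 77.1 ± 2.72 and 42.7 ± 1.78 CPM. Like *Socs3*, *Socs5* was lowest in KO, but its KO_PAPC libraries overlapped those of WT.

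The 7 adaptors that lead from gp130 to the ERK and PI3K pathways gave 4 up and 1 down in KO against WT, 2 up and 5 down in KO_PAPC against KO, and 3 up and 3 down in KO_PAPC against WT. *Grb2*, the adaptor that recruits SOS to start RAS signalling, was at 115.7 ± 0.320 CPM in WT EBs, 168.8 ± 0.775 in KO and 86.7 ± 1.20 in KO_PAPC EBs. *Shc1*, an adaptor upstream of GRB2, was at 108 ± 1.78, 77.4 ± 1.63 and 101 ± 0.803 CPM, and so was lowest in KO. The log2 fold changes in KO against WT were 0.55 ± 0.0266 for *Grb2* (edgeR adjusted p = 5.38e-19) and -0.48 ± 0.0308 for *Shc1* (edgeR adjusted p = 9.89e-16).

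The 20 other STAT3 target genes did not move one way. In KO against WT 9 were up and 8 down, with a median log2 fold change of -0.0016. In KO_PAPC against KO 11 were up and 8 down, and in KO_PAPC against WT 9 were up and 8 down of 19 tested. *Pim2*, a kinase close to *Pim1* in sequence and function, went the other way from it in KO against WT and in KO_PAPC against KO. *Pim2* had 185 ± 3.65 CPM in WT EBs, 53.1 ± 1.73 in KO and 406 ± 2.23 in KO_PAPC EBs. Its log2 fold changes were -1.80 ± 0.0314 in KO against WT (edgeR adjusted p = 1.08e-31) and 3.10 ± 0.0307 in KO_PAPC against KO (edgeR adjusted p = 1.71e-41). In KO_PAPC against WT both genes were higher, with log2 fold changes of 1.30 ± 0.0277 for *Pim2* (edgeR adjusted p = 1.62e-22) and 0.87 for *Pim1*. *Fos*, an immediate early gene that many pathways induce, was at 6.97 ± 0.724, 2.96 ± 0.143 and 48.7 ± 2.69 CPM, and rose by 4.21 ± 0.0725 in KO_PAPC over KO (edgeR adjusted p = 2.22e-34). *Vegfa*, the angiogenic factor, was at 143 ± 3.86 CPM in WT EBs, 53.8 ± 2.42 in KO and 72.4 ± 1.29 in KO_PAPC EBs.

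Genes of this list that also belong to the naive pluripotency network were looked at after their values were seen. *Tfcp2l1*, through which LIF upholds self-renewal in ES cells, was at 103 ± 1.02 CPM in WT EBs, 242 ± 3.99 in KO and 34.2 ± 0.584 in KO_PAPC EBs, with a log2 change of 1.23 ± 0.0265 in KO (edgeR adjusted p = 4.33e-29) and of -2.66 ± 0.0336 in KO_PAPC against KO (edgeR adjusted p = 1.57e-38). *Klf4* was at 54.8 ± 1.75, 87.7 ± 0.645 and 41.9 ± 1.52 CPM. *Pramel7* had 9 to 20 counts in WT, 41 to 43 in KO and at most 1 in KO_PAPC. These 3 shared the order of *Jak2* and *Il6st*, highest in KO and lowest in KO_PAPC. Other genes of the list with a place in that network did not. *Klf5* was at 189.7 ± 1.92, 162.6 ± 2.17 and 112.5 ± 4.83 CPM and so fell in KO, and *Gbx2*, at 12.8 ± 1.51, 16.9 ± 0.748 and 16.1 ± 1.09 CPM, was not called between KO_PAPC and KO. *Junb* (19.6 ± 0.651, 10.8 ± 0.836 and 35.8 ± 3.09 CPM) and *Myc* (15.3 ± 0.552, 10.2 ± 0.532 and 23.0 ± 0.219 CPM) had the order of *Socs3*, lowest in KO and highest in KO_PAPC, which is also that of the summed neuroectoderm markers, though not of *Sox3* among them.

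**Figure D4:**
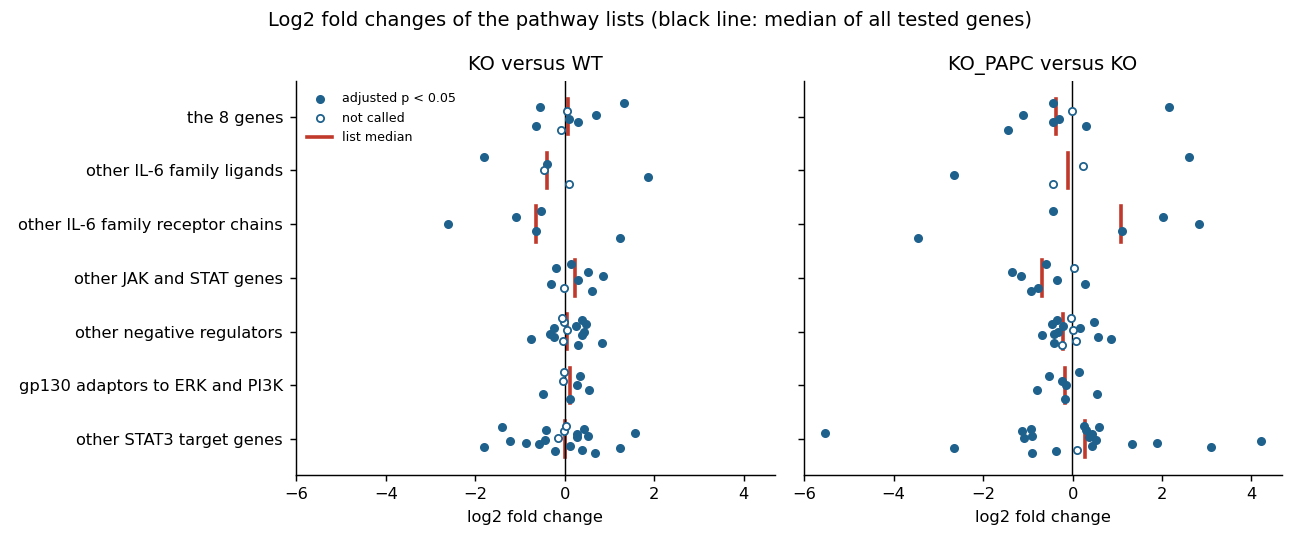
Log2 fold changes (horizontal axes) of the 8 genes and of the tested genes in each of the 6 pathway lists, in KO against WT and KO_PAPC against KO, where filled points are called at an adjusted p under 0.05, red lines are list medians and black lines the median of all tested genes. Points lie on both sides of the black line in every list, and the widest spread, from -5.53 to 4.21 in KO_PAPC against KO, is that of the other STAT3 target genes. The value of -5.53 is that of *Pramel7*, which had at most 1 count in each KO_PAPC library. The next lowest gene of that list is *Tfcp2l1*, at -2.66.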

How the data were processed

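Read counts per gene were deposited for 9 libraries. Per the labels and the study's methods, the authors sequenced unstranded TruSeq RNA v2 libraries with 51 cycles, mapped reads to GRCm38 with STAR 2.7.2b and made the counts with featureCounts 1.6.5. The methods describe mapping with STAR and Ensembl 99 for KO and KO_PAPC, and with TopHat2 and Ensembl 90 for KO and WT. The mapping tool named in the sample labels is STAR. Which of the described pipelines made the WT columns was not tested. Groups and replicate numbers came from sample titles. The methods call the replicates biological, and the labels do not name separate cultures. All replicate pairs differed beyond sampling noise in a chi-square test of their counts. With so many genes this test also picks up small differences, so it cannot tell separate cultures from repeated preparations of the same culture. If the libraries did not come from separate cultures, the p-values do not measure spread between cultures.

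Genes were tested with edgeR 4.0.16 (R 4.3.3; glmQLFit, TMM, filterByExpr) on the 6 libraries of each comparison and called at a Benjamini-Hochberg adjusted p under 0.05 over all tested genes. A 2-fold change was tested with glmTreat. SE and 95% intervals came from the F statistic. CPM used library totals. Exon lengths and positions came from GENCODE M21 and promoters from RefSeq (GRCm38.p6), which held 47 of the 63 pathway genes. The code was tested on simulated counts. The 8 genes and all lists were chosen with earlier results of these data known. Besides the 8, each pathway list gave at most 4 named genes, those with the largest called log2 fold change in KO against WT or KO_PAPC against KO and a mean of at least 1 CPM, and each of the 8 genes gave the 2 protein-coding genes of at least 10 CPM most like it in log2(CPM + 0.5). Others are said to be chosen after their values were seen. Alternatives were DESeq2 1.42.0, RLE factors, library totals, other filters, a joint fit, a replicate block, a 1.5-fold minimum and each replicate left out in turn. No batch was labelled.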

Additional observations from a re-analysis of the deposited data

How the results depend on the processing

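Of 312 alternative values for the log2 fold changes of the 8 genes, 306 kept their direction and their side of the threshold. For *Jak1* in KO against WT the call was lost when every gene with at least 1 count was tested (0.0744, edgeR adjusted p = 0.0625), and leaving out each replicate in turn gave 0.0679 to 0.0984. *Stat3* in KO_PAPC against KO was -0.185 with scaling by library totals, which made it a call, and 0.00455 with genes of at least 1 count. Leaving out each replicate in turn gave -0.0414 to 0.00162 for it, and the sign turned without KO_PAPC replicate 1 (0.00162). *Stat3* in KO_PAPC against WT turned to -0.132 with library totals. Among the named genes of the pathway lists, 568 of 585 alternative values kept direction and call, and with library totals *Socs5* (-0.0639) and *Shc1* (-0.0928) turned sign in KO_PAPC against WT. The causes of the changes without a replicate and with other filters were not tested.

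The numbers of genes called stayed within 1.5-fold in all 120 alternatives. This limit lets a count of 3 become 2, so it says little about small counts. The number of the 8 genes past a 2-fold change in KO_PAPC against KO went from 3 to 2 with DESeq2 and in other alternatives. With the replicate block, 6, 7 and 7 of the 8 genes were called in KO against WT, in KO_PAPC against KO and in the remaining comparison, 1, 2 and 2 passed a 2-fold change, and 48, 51 and 43 genes of the pathway lists were called. The deviations from group means correlated by -0.132 to 0.195 between libraries of the same number, and 0 of 3 libraries correlated best with their own number between KO and either other group, where it was 2 of 3 between WT and KO_PAPC, so that the numbers were not taken to pair the libraries. The biological coefficient of variation, the fitted spread between replicates, was 2.09% to 2.65%, so that small differences were called. Whether this low spread is that between separate cultures cannot be told from the counts. Depth limits *Osm*, *Il6*, *Il27*, *Osmr* and *Pramel7*, which had few counts.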

Other observations

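The genes whose levels followed each of the 8 genes most closely over the 9 libraries were looked up among 9620 other genes of at least 10 CPM on average, as a description. With 3 groups of 3 close replicates, a high r says little beyond a shared order of the group means. For *Socs3* these were *Prkaca*, the catalytic subunit of protein kinase A (r = 0.9975, with 126, 116 and 155 CPM in WT, KO and KO_PAPC), and *Lsm6* (r = 0.9963). For *Pim1* they were *Kdm5b*, a histone demethylase (r = 0.9972, with 486, 702 and 589 CPM), and *Dusp4*, a phosphatase of MAP kinases (r = 0.9962, with 52.1, 111 and 77.0 CPM). For *Il6st* they were *Dsp*, desmoplakin (r = 0.9993, with 40.5, 103 and 15.1 CPM), and *Dennd5a* (r = 0.9993). *Lifr* was followed by *Fam171a1* (r = 0.9958) and *Fignl2* (r = 0.993), *Jak1* by *Dgka* (r = 0.9977) and *Aldh3a2* (r = 0.9975), *Jak2* by *1110012L19Rik* (r = 0.9973) and *Ddi2* (r = 0.9968), and *Stat3* by *Grk3* (r = 0.9891) and *Abcd3* (r = 0.9853). *Lif* was followed by the mitochondrial gene *mt-Cytb* and by *Ghitm*, whose product lies in the inner mitochondrial membrane (both r = 0.9956), and *mt-Cytb* was at 4030 ± 24.2 CPM in WT EBs, 3900 ± 22.2 in KO and 2300 ± 84.6 in KO_PAPC EBs. The number of genes with r above 0.9 ran from 362 for *Pim1* to 2376 for *Il6st*. All r values in this paragraph rest on CPM by library totals, a scale on which KO_PAPC libraries lie lower than on the TMM scale. The part of that scaling in the choice of genes was not tested.

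Among the 8 genes, *Il6st* and *Jak2* followed each other (r = 0.981 over 9 libraries), *Socs3* ran against *Jak1* (r = -0.986) and *Stat3* (r = -0.979), and *Pim1* ran against *Lifr* (r = -0.944). These points share their libraries and the scaling by library totals, whereas on the TMM scale *Stat3* was called in no comparison. The part of the scaling in these r values was not tested.

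The STAT palindrome TTCNNNGAA was present in 4 of 25 promoter windows of the other STAT3 target genes (in *Bcl6*, *Icam1* and *Sgk1*) and in 1 of 11 windows of the gp130 adaptors (9.09%, in *Gab1*), beside 7.02% of all windows. No window of the other 4 lists held it. No test was made of these counts.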
